A study of Mus musculus with 4 samples.

Results

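The cytosolic ribosomal protein genes were examined in skin RNA of 4 female C57BL/6 mice given bleomycin (BLM), a DNA-breaking drug that leads to scarring of the skin at its injection site and is used to model scleroderma. They were taken by name: every row of the deposited gene table whose symbol is Rpl or Rps followed by a number and, at most, a short suffix, together with Rplp0, Rplp1, Rplp2 and Rpsa. This gave 85 of 24441 rows, of which 77 are genes of the ribosome core and 8 are paralogs or retrocopies (Rpl3l, Rpl7l1, Rpl10l, Rpl22l1, Rpl32l, Rpl39l, Rps4l and Rps27l). The WT group held 2 wild type mice and the KO group 2 GSDMD-/- mice, a line made with Cas9 mRNA and a guide RNA in fertilized eggs of the same strain. All 4 animals had BLM injected at a fixed place on the back every other day for 28 days, and the labels give their age as postnatal week 8. No library of uninjected or saline-treated skin was analysed here, so both groups share the treatment. The labels do not say that the samples of a group came from separate litters or cages, so the p-values measure the spread between these samples, which may be partly technical.

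A cytosolic ribosome is built from a small 40S subunit, which reads the mRNA, and a large 60S subunit, which joins amino acids. Proteins of the Rps series sit in the small subunit and those of the Rpl series in the large subunit, and Rplp0, Rplp1 and Rplp2 form the stalk of the large subunit, where elongation factors bind. Subunits are assembled in the nucleolus from about equal amounts of each protein, and the mRNAs of these proteins belong to the most abundant ones of most cells. Most of them begin with a terminal oligopyrimidine tract, a C followed by a run of pyrimidines, through which mTOR and the RNA-binding protein Larp1 control their translation. Such control acts on translation and is not measured by RNA-seq.

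The start sites of some members are shown because this tract is the feature that the family shares at the beginning of its mRNAs. RefSeq promoter sequences of GRCm38.p6 were at hand for 64 of the 85 members. A C at the first transcribed base followed by at least 4 pyrimidines (C or T, read on the strand of the gene) was present in 14 of these 64 members (21.9%) and in 3.01% of the 27025 genes of the promoter table. When the tract was allowed to begin within 10 bases on either side of the annotated start, it was found in 62.5% of the members and in 34.4% of all genes. A missing tract says only that the letters are not in this window, and annotated starts can lie some bases off. Each window below runs from 12 bases before the start to the 18th transcribed base, and capitals mark the pyrimidine run that begins with a C at the start.
Rps6, chr4:86857350-86857379, minus strand: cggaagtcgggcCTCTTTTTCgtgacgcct
Rps10, chr17:27635227-27635256, minus strand: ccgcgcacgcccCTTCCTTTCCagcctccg
Rps27, chr3:90213631-90213660, minus strand: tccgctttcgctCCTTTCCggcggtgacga
Rpl15, chr14:18270969-18270998, minus strand: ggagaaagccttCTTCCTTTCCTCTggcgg
Rpl35, chr2:39005114-39005143, minus strand: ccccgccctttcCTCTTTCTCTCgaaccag
Rpl38, chr11:114668568-114668597, plus strand: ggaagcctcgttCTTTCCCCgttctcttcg
Rplp2, chr7:141447639-141447668, plus strand: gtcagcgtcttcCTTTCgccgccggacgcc
Rpl11, chr4:136053376-136053405, minus strand: acccataaggccacggggccggaagtctcc
Rpl22l1, chr3:28805496-28805525, plus strand: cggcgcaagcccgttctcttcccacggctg

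Rpl11 and Rpl22l1 have no C at the annotated start. Among core members with a promoter sequence outside chromosome 18, the 13 with the tract at the start had a median log2 fold change of 0.60, and the 44 without it had one of 0.54. In 9 of the 13 and 38 of the 44, both KO libraries lay above both WT libraries, as they did in 35.3% of all genes tested, and these values carry no test.

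The deposited values are FPKM, fragments divided by transcript length and library depth. Their sum lay between 448544 and 462251 in the 4 libraries. From the smallest spacing between values of weakly expressed genes, a single fragment in a transcript of 1 kb came to about 0.0574 to 0.0785 FPKM, so that all but the weakest members rest on many fragments. The skin label was met by the keratins Krt5 and Krt14 of the basal epidermis, with at least 764 and 1215 FPKM in every library. For Gsdmd, the gene knocked out, the WT values were 14.0 and 18.2 FPKM and the KO values 3.53 and 2.26 FPKM. KO replicate 2 stood apart in its content of dermal and immune markers. The 8 fibroblast markers summed to 342 and 264 FPKM in WT, 541 FPKM in KO replicate 1 and 36.1 FPKM in KO replicate 2, and the 6 endothelial markers to 67.6, 98.1, 93.0 and 7.88 FPKM in the same order. None of the markers of these lists was at 0 in all libraries. In whole skin, fewer cells of a type and less RNA per cell cannot be told apart.

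Ribosomal protein mRNA took a larger share of the library in both KO mice than in either WT mouse. The 85 rows held 6.30% and 6.19% of all FPKM in WT replicates 1 and 2, 7.70% in KO replicate 1 and 9.86% in KO replicate 2. The WT libraries lay close together, both KO libraries lay above them, and KO replicate 2 was well above KO replicate 1. The means were 6.25% ± 0.0748 in WT and 8.78% ± 1.53 in KO mice (SD, n = 2 each), a difference of 2.54 percentage points (p = 0.333 by an exact two-sided permutation test, the smallest p that 2 against 2 samples allow). Without KO replicate 2 the difference was 1.46 points, and without KO replicate 1 it was 3.62 points. The 40S genes held 2.98%, 2.92%, 3.61% and 4.80% in WT replicates 1 and 2 and KO replicates 1 and 2, and the 60S genes without the stalk 2.50%, 2.45%, 3.15% and 4.02%. In both subunits KO replicate 2 was highest and WT replicate 2 lowest. KO replicate 2 was also the library with the least fibroblast and endothelial marker RNA, given above, and the part of this in the shares was not tested. The ratio of the summed 40S to the summed 60S level was 1.19 in 3 libraries and 1.15 in KO replicate 1.

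**Figure D1:**
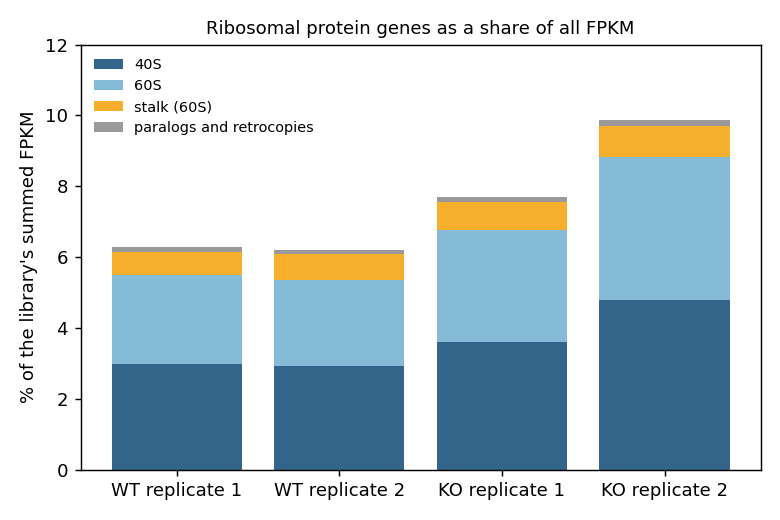
Stacked bars give the summed FPKM of the 40S genes, 60S genes, stalk genes and paralogs or retrocopies as a percentage of all FPKM, 1 bar per library. The bars reach 6.30% and 6.19% in WT and 7.70% and 9.86% in KO mice, and the 40S and 60S parts are both taller in the KO bars.

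The family was abundant on the per-length scale: the median of the members' mean levels was 239.7 FPKM, against 8.86 FPKM over all tested genes, and 57 core genes had at least 100 FPKM in every library.

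Gene by gene, 84 of the 85 members reached at least 1 FPKM in at least 2 libraries and were tested by limma on log2(FPKM + 1), and all 84 did so in each of the 4 libraries. The exception was Rpl10l, an intronless testis paralog of Rpl10, which was listed at 0 throughout. Over all 13027 genes tested, 0% passed an adjusted p under 0.05 with an absolute log2 fold change above 1, and 0 of the 84 members did (limma with Benjamini-Hochberg adjustment). With an unadjusted p under 0.05, 6 members were higher and 1 was lower in KO mice, or 7.14% and 1.19% of the members, against 10.9% and 6.22% of all genes tested. Rps24, Rpl11 and Rpl17 were among the higher ones, and the lower one was Rpl3l. The count of 6 depended on single libraries and on scaling. It was 38 (45.2%) without KO replicate 1, against 15.6% of all genes, 0 without WT replicate 2, against 2.17%, and 1 (1.19%) with median-ratio scaling, against 8.69%. In the fit of all 4 libraries, the log2 fold change was above 0 in 79 of the 84 members, against 58.6% of all genes. In 66 members both KO libraries lay above both WT libraries, against 35.3% of all genes, and in 1 member both KO libraries lay below, against 20.5%. With median-ratio scaling of the libraries the first of these counts was 44 (52.4%), against 27.8% of all genes, and with upper-quartile scaling 51 (60.7%), against 28.8%. The median log2 fold change was 0.49 over the 84 members (quartiles 0.31 and 0.63) and 0.11 over all genes (quartiles -0.28 and 0.46). Median-ratio scaling, which moved the median of all genes to 0.01, left the members at 0.37. Leaving out KO replicate 2 gave a median of 0.28 for the members, and leaving out KO replicate 1 gave 0.68. No member had an adjusted p under 0.05 in limma, so no single ribosomal protein gene is shown to differ between the groups.

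**Figure D2:**
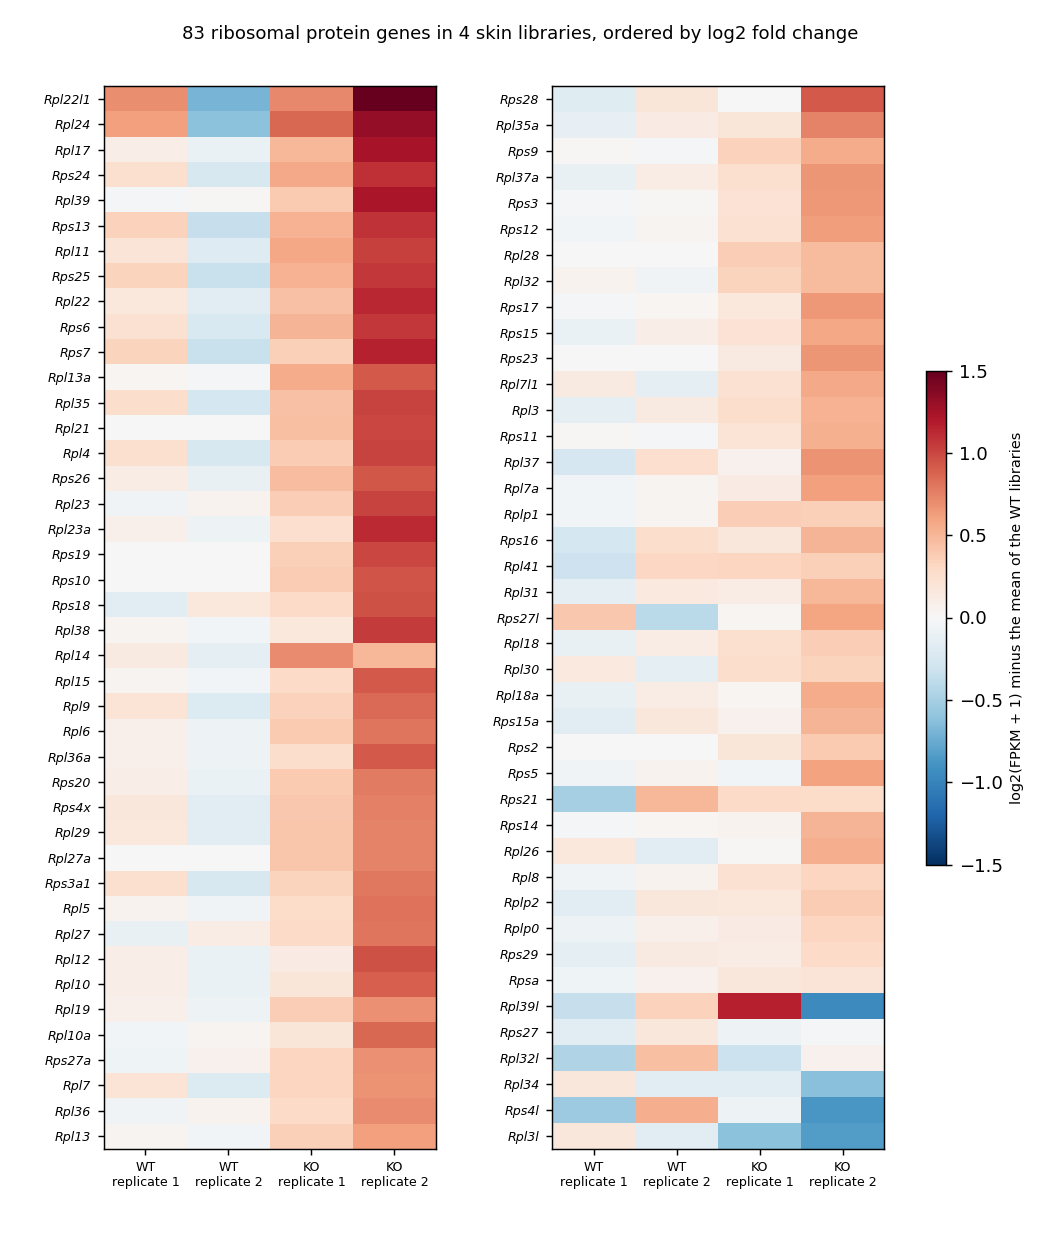
Each row is a ribosomal protein gene, with 83 of the 84 tested ones shown, ordered by log2 fold change down the left and then the right panel, and each column is 1 library. Colours give log2(FPKM + 1) minus the mean of the WT libraries, and the scale stops at 1.5. KO replicate 2 is the reddest column and KO replicate 1 is paler in most rows, and the last rows, among them Rpl34, Rps4l and Rpl3l, are blue in the KO columns.

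KO replicate 2 had the highest value of the 4 libraries in 72 of the 77 core genes, against 41.6% of all genes tested, and KO replicate 1 was above both WT libraries in 64 of them, against 46.5%. Relative to the WT mean, the median core gene stood 0.29 log2 units higher in KO replicate 1 and 0.71 log2 units higher in KO replicate 2. The lowest library was WT replicate 1 in 35 core genes and WT replicate 2 in 41. The core genes were otherwise not in lockstep between WT mice. The median difference between WT replicates 2 and 1 was -0.02 log2 units, but single genes ranged from -1.24 for Rpl24 to 1.00 for Rps21. The interquartile range of this difference was -0.23 to 0.13 for the core genes and -0.38 to 0.16 for all genes tested. Between KO replicates 2 and 1 the median difference was 0.45 log2 units for the core genes and 0.03 for all genes, with 73 of 77 core genes higher in KO replicate 2, against 52.1% of all genes.

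Among the 31 genes of the small subunit, 30 had a higher mean in KO mice, against 58.6% of all genes, and in 24 both KO libraries lay above both WT libraries, against 35.3%. Their median log2 fold change was 0.45. Rps15 was the most abundant member on the per-length scale, with 1457 and 1665 FPKM in WT against 1810 and 2332 FPKM in KO mice. All KO values of Rps15 were above the WT values, and its log2 fold change was 0.40 (standard error 0.28). Rps24, which is needed for processing of the small-subunit rRNA, had 515 and 369 FPKM in WT against 645 and 935 FPKM in KO mice. The groups of Rps24 did not overlap, and limma gave a log2 fold change of 0.83 (standard error 0.32) with an adjusted p of 0.291. Rps26 had 1054 and 910.5 FPKM in WT against 1346 and 1870 FPKM in KO mice. Rps24 and Rps26 both showed the order in which KO replicate 2 was highest and WT replicate 2 lowest. Rps13 was less abundant, with 70.7 and 43.4 FPKM against 79.9 and 119 FPKM, and here the step between WT replicate 1 and KO replicate 1 was small beside the gap between the WT mice.

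Rps6 is the protein that the S6 kinases phosphorylate downstream of mTOR, and its start site carries the tract printed above. It lies on chromosome 4 of mm9 from 86500002 to 86503271. Its mRNA had 171 and 124 FPKM in WT against 209 and 305 FPKM in KO mice, and the groups did not overlap. The means were 147.9 ± 33.2 and 256.8 ± 68.0 FPKM (SD, n = 2 each), and the difference of 0.78 on the log2 scale (standard error 0.32) had an adjusted p of 0.297 in limma. Rps19, the gene most often mutated in Diamond-Blackfan anaemia, had nearly the same value in both WT mice, 336 and 334 FPKM, and 431 and 672 FPKM in KO mice. The X-linked Rps4x had 586 and 465 FPKM in WT against 692 and 883 FPKM in KO mice.

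At the lower end of the small subunit stood Rpsa, Rps29 and Rps27. Rpsa, which is also known as the laminin receptor, had 359 and 390.5 FPKM in WT against 420.3 and 427 FPKM in KO mice. Its values did not overlap but were close, and they differed by 0.18 log2 units (standard error 0.23). Rps29 overlapped between the groups, since WT replicate 2 had 592 FPKM and KO replicate 1 had 582 FPKM. Rps21 showed the widest gap between WT mice in this direction: 263 and 525 FPKM in WT against 454 and 449 FPKM in KO mice, so that its log2 fold change of 0.28 (standard error 0.39) was within the spread of the WT group.

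In the large subunit, 42 of the 43 genes other than the stalk had a higher mean in KO mice, and in 38 the groups did not overlap, to be read against the same 58.6% and 35.3% of all genes. The median log2 fold change was 0.54. Rpl24, a protein at the interface of the subunits, had the largest value, 1.09 (standard error 0.47), which did not pass in limma (adjusted p = 0.311). Its levels were 55.7 and 23.0 FPKM in WT against 66.2 and 90.7 FPKM in KO mice. WT replicate 2 was thus far below the other 3 libraries, and WT replicate 1 was nearer to KO replicate 1 than to its own group. Rpl17 had 117 and 102 FPKM in WT against 155 and 259 FPKM in KO mice, and Rpl39, a very small protein that lines the exit tunnel, had 169 and 172 FPKM against 223 and 400.5 FPKM. In both genes the WT mice were close and KO replicate 2 supplied most of the difference. Without KO replicate 1, Rpl17 and Rpl39 were the members that passed the threshold by limma, with differences of 1.24 and 1.23 log2 units (adjusted p = 0.0391 and 0.0362). In that fit, where the lone KO library is assumed to vary like the WT libraries, the 2 members were 2.38% of the family, against 15.2% of all genes. Without KO replicate 2, 0 of the 84 members and 0.244% of all genes passed in limma.

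Rpl5 and Rpl11 form a complex with the 5S rRNA that, when not built into ribosomes, can bind Mdm2 and thereby stabilise p53. Rpl11 (chromosome 4 of mm9, 135605862 to 135609286) stood at 281 and 216 FPKM in WT against 369 and 502 FPKM in KO mice. For Rpl11 the difference was 0.80 log2 units (standard error 0.29), with an adjusted p of 0.278 in limma. Rpl5 had 97.1 and 90.0 FPKM in WT against 114 and 165 FPKM in KO mice, or 0.55 log2 units more (standard error 0.28). Both were higher in both KO mice. An exon of Rpl5 overlaps one of Fam69a, which runs in the other direction, and the sources used here do not give whether strand was used in counting. Exons of Rpl23a, Rpl31, Rpl35, Rps25 and Rps27a also overlap those of a gene on the other strand.

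Rpl38, whose loss in mice alters translation of Hox mRNAs and the pattern of the skeleton, stood at 141 and 134 FPKM in WT, 154 FPKM in KO replicate 1 and 286 FPKM in KO replicate 2. Its KO value thus rested mostly on KO replicate 2. The X-linked Rpl10 had the same shape, with 130.3 and 114 FPKM in WT against 138 and 228 FPKM in KO mice. The most abundant rows of the large subunit were different. Rpl32 had 1109 and 1038 FPKM in WT against 1353 and 1491 FPKM in KO mice. Rpl41, which encodes one of the shortest known proteins, had 1037 and 1587 FPKM in WT against 1600 and 1646 FPKM in KO mice, where WT replicate 2 nearly reached the KO values.

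The 3 stalk genes were higher in KO mice by less than most of the family, with a median log2 fold change of 0.27. Rplp0 stood at 987 and 1091 FPKM in WT against 1127 and 1300 FPKM in KO mice. Rplp1 had 1283 and 1366 FPKM in WT against 1707 and 1691 FPKM in KO mice, so that for this gene KO replicate 2 was not above KO replicate 1. Rplp2 overlapped, with 654 and 834 FPKM in WT against 827 and 964 FPKM in KO mice. The log2 fold changes were 0.22, 0.36 and 0.27 (standard errors 0.25, 0.25 and 0.27) in the same order. None of these 3 passed the test, and a difference between the stalk and the other genes was not tested.

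The paralogs were mixed in direction. Of the 7 that were tested, 4 had a higher and 3 a lower mean in KO mice, and their median log2 fold change was 0.11. Rpl3l replaces Rpl3 in ribosomes of heart and skeletal muscle. It had 237 and 186 FPKM in WT against 136 and 117 FPKM in KO mice, and it was the member counted above as lying below in both KO mice. The limma fit gave -0.72 log2 units (standard error 0.26), an unadjusted p of 0.0365 and an adjusted p of 0.274. Rpl3 itself had 161 and 196 FPKM in WT against 214 and 254 FPKM in KO mice. Rpl3l therefore made up 59.5% and 48.7% of the summed Rpl3 and Rpl3l level in WT and 39.0% and 31.5% in KO libraries. Muscle RNA was also lower in KO mice: the 6 skeletal muscle markers, all of them lower on average in KO mice and none at 0, summed to 20805 and 19615 FPKM in WT against 13020 and 12792 FPKM in KO mice. Acta1, the actin of skeletal muscle fibres, had 6710 and 7681 FPKM in WT against 5028 and 3728 FPKM in KO mice. The part of the muscle RNA in the Rpl3l values was not tested.

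Rpl22l1 stood at 108 and 40.8 FPKM in WT against 110.2 and 190 FPKM in KO mice. The log2 fold change of 1.11 was the largest of all members but had a standard error of 0.55, and WT replicate 1 nearly equalled KO replicate 1. Its partner Rpl22, an RNA-binding protein of the large subunit, had 81.9 and 65.9 FPKM in WT against 99.96 and 163 FPKM in KO mice. Rps27l is a paralog of Rps27 that p53 can induce. It had 335 and 192 FPKM in WT against 258 and 383 FPKM in KO mice, so the groups overlapped. Rpl39l, a paralog best known from testis, was low, with 3.87 and 6.93 FPKM in WT, 12.9 FPKM in KO replicate 1 and 2.22 FPKM in KO replicate 2. The KO mice lay at both ends of this range, and an estimated 15.5 fragments stood behind the lowest value. Rps4l, a relative of Rps4x, had 23.5 and 51.2 FPKM in WT against 32.9 and 18.6 FPKM in KO mice. Rpl7l1, a relative of Rpl7, had 24.3 and 20.1 FPKM in WT against 26.0 and 33.1 FPKM in KO mice, and its share of the summed Rpl7 and Rpl7l1 level stayed between 3.51% and 3.91%. The row Rpl32l had 12.4 and 24.2 FPKM against 13.7 and 18.3 FPKM.

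**Figure D3:**
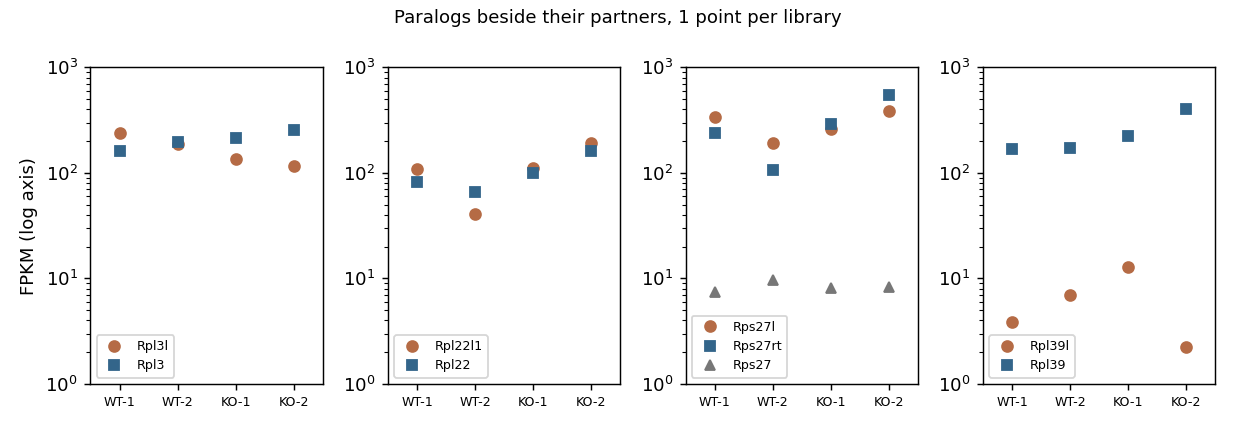
FPKM on a log axis for 4 paralogs (circles) and their partners (squares, and a triangle for the row named Rps27), 1 point per library. Rpl3l goes from 237 and 186 FPKM in WT to 136 and 117 FPKM in KO mice while Rpl3 lies at 161 to 254 FPKM, and the Rps27 row stays under 10 FPKM beside Rps27rt at 107 to 545 FPKM.

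Several members share their sequence or their place in the genome with another row, and their values cannot be read alone. By the coordinates of the deposited table, the rows Rps27 and Rps27rt cover the same stretch of chromosome 3 of mm9, from 90016588. Rps27 had only 7.48 and 9.72 FPKM in WT against 8.03 and 8.34 FPKM in KO mice, whereas Rps27rt had 239 and 107 FPKM in WT against 288 and 545 FPKM in KO mice. With both rows added, the locus had a log2 fold change of 1.25 and did not overlap between the groups, while the Rps27 row alone had one of -0.05. The table also places Rpl34 and Rpl34-ps1 over one another, on the same chromosome. Rpl34 had 18.3 and 14.3 FPKM in WT against 14.4 and 10.2 FPKM in KO mice, and Rpl34-ps1 had 572 and 504 FPKM against 644 and 821 FPKM. Their sum had a log2 fold change of 0.42, against -0.39 for the Rpl34 row. The 2 core genes with a lower mean in KO mice were thus the rows Rps27 and Rpl34, which hold the smaller part of a shared locus. Rpl37rt, on another chromosome than Rpl37, held 404 and 631 FPKM in WT against 529 and 688 FPKM in KO mice, against 17.4 and 25.1 and 21.9 and 34.0 FPKM in the Rpl37 row. Rplp2-ps1 and Rpl14-ps1 had at least 397 and 468 FPKM in every library. The paper's methods name the union option of featureCounts for read counts. How fragments were shared between such copies in the deposited FPKM values is not given in the sources used here. The levels of Rps27, Rpl34, Rpl37, Rps15a, Rpl14, Rpl31 and Rplp2 are therefore uncertain.

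The naming rule leaves out some proteins of the cytosolic ribosome. Fau, in which a ribosomal protein is made as a fusion with a ubiquitin-like protein, had a log2 fold change of 0.14, and its groups overlapped. Rack1 of the small subunit and Rpl36al had 0.29 and 0.41, and their groups did not overlap. Fau had 137 and 167 FPKM in WT against 170.4 and 163 FPKM in KO mice.

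Other lists of the translation apparatus were compared by their counts and medians. Of 39 ribosome biogenesis factors, 35 had a higher mean in KO mice, against 58.6% of all genes tested, and 18 did not overlap in this direction, against 35.3%. Their median log2 fold change was 0.28. With an unadjusted p under 0.05, 4 of them (Gar1, Nhp2, Nop58 and Npm1) were higher, which is about the share of 10.9% among all genes, and 0 were lower, against 6.22%. None passed the adjusted threshold in limma. Npm1, the nucleolar chaperone nucleophosmin, had 87.7 and 53.5 FPKM in WT against 108 and 195 FPKM in KO mice. Nop58, of the box C/D particles that guide rRNA methylation, had 13.0 and 5.74 FPKM against 16.1 and 32.9 FPKM. In both genes KO replicate 2 was highest, as in most core genes, and WT replicate 2 was lowest. Of 35 translation factors 28 had a higher mean, with a median of 0.29. The groups did not overlap upward in 13 of them, close to the 35.3% of all genes, and 0 were higher with an unadjusted p under 0.05 in limma, against 10.9%. The largest fold change among them was that of Eif4a1. Eif4a1, the helicase of the cap-binding complex, had 80.1 and 58.1 FPKM in WT against 98.6 and 146 FPKM in KO mice. Of 11 tested genes around RNA polymerase I, which transcribes rRNA, 9 had a higher mean, with a median of 0.26, and 3 did not overlap in this direction, against the same 35.3%.

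The mitochondrial ribosomal proteins, which build a separate ribosome, had a median log2 fold change of 0.10 over 78 genes, close to that of all genes. In 9 of them both KO libraries were above and in 9 both were below the WT libraries, against 35.3% and 20.5% of all genes. For 37 tested proteasome subunits the median was -0.04, with 1 and 10 genes not overlapping in these directions, to be read against the same shares. In most genes of both lists the groups overlapped, and a difference between lists was not tested.

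Among 15 tested mTOR and Myc regulators, 8 had a higher and 7 a lower mean, with a median of 0.01. Myc, a transcription factor that drives ribosomal protein and biogenesis genes, had 9.21 and 8.54 FPKM in WT against 13.5 and 30.9 FPKM in KO mice. This was 1.13 log2 units more (standard error 0.42), with an adjusted p of 0.282 in limma. Eif4ebp1, which holds back cap-dependent translation when mTOR is inactive, was lower, with 177 and 242 FPKM in WT against 131 and 114 FPKM in KO mice. In the list of p53 and its ribosomal checkpoint, 4 of 10 genes had a higher mean and the median was -0.13. Of these, Trp53 and Mdm4 were higher with an unadjusted p under 0.05, against 10.9% of all genes, which over 10 genes is too few to set the list apart, and none of the 10 passed after adjustment in limma. Mdm4, an inhibitor of p53, had 11.7 and 9.42 FPKM in WT against 17.3 and 24.4 FPKM in KO mice, and Trp53 had 20.2 and 16.1 FPKM in WT against 29.7 and 27.3 FPKM in KO mice.

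**Figure D4:**
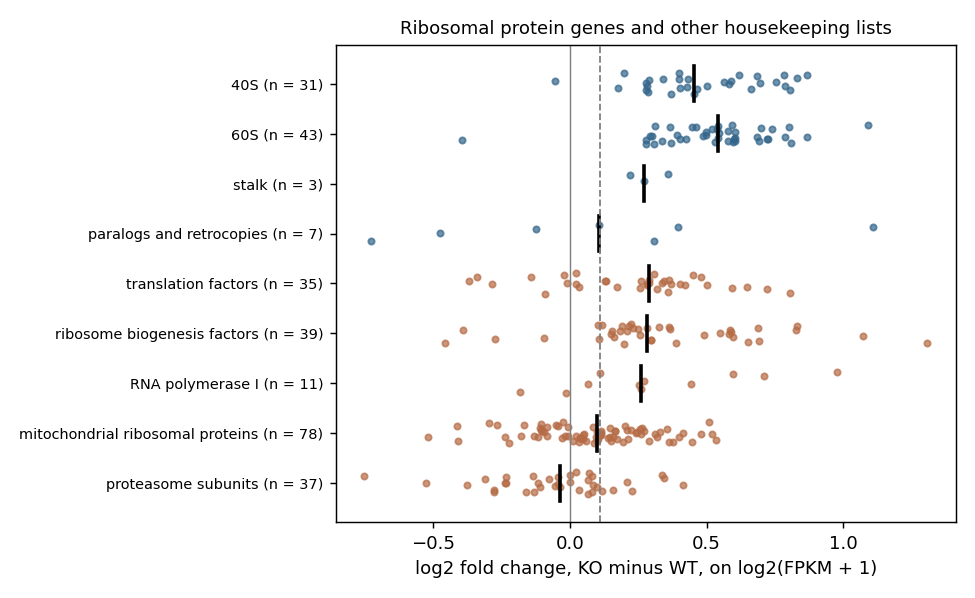
Each point is 1 gene, placed by its log2 fold change (KO minus WT, on log2(FPKM + 1)), with ribosomal protein genes in blue and other lists in brown. Black bars are medians, the solid grey line is 0 and the dashed line is the median of all tested genes, 0.11. The 40S and 60S medians are 0.45 and 0.54, those of translation and biogenesis factors 0.29 and 0.28, and those of mitochondrial ribosomal proteins and proteasome subunits 0.10 and -0.04.

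Marker RNA of other cell types also differed between the libraries. The 6 keratinocyte markers, all with a higher mean in KO mice and none at 0, summed to 3533 and 2758 FPKM in WT against 7889 and 5084 FPKM in KO mice. The order of the KO libraries differed between these markers. Krt14 of the basal layer had 1293 and 1215 FPKM in WT against 2689 and 2735 FPKM in KO mice. Trp63, the transcription factor of basal keratinocytes, had 17.0 and 11.3 FPKM against 32.7 and 56.8 FPKM. Both were highest in KO replicate 2, as most core genes were, though Krt14 only by little. Krt5 of the basal layer had 1728 and 1664 FPKM in KO replicates 1 and 2, and Dsp had 104.7 and 81.9 FPKM. Krt5 and Dsp were thus highest in KO replicate 1. The differentiation keratins Krt1 and Krt10 had 1665 and 1670 FPKM in KO replicate 1 but were lowest in KO replicate 2, at 279.9 and 266 FPKM, and they make up most of the gap between the KO sums. The 8 macrophage markers, all lower on average in KO mice and none at 0, summed to 701 and 922 FPKM in WT against 352 and 33.7 FPKM in KO mice, and the 5 adipocyte markers to 1753 and 4798 FPKM in WT against 2221 and 208 FPKM in KO mice. The 10 hair follicle markers summed to 340.2 FPKM in KO replicate 1 and to at most 19.9 FPKM in the other 3 libraries. The part of these cell types in the ribosomal protein values was not tested.

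Ribosomal protein mRNAs are short, and transcript length can bear on FPKM. The median coding transcript of the core genes found in the GENCODE annotation of mm9 was 637 bases (75 genes), against 2030 bases for the tested genes that are no members. The 2526 tested non-members of at most 1000 bases had a median log2 fold change of 0.05, below that of all genes. After each library's trend with transcript length and GC content had been removed, the members' median was 0.47 and that of all genes -0.01. This step centres each library, so a median of all genes near 0 follows from it. It also left out genes without a coding transcript in that annotation, among them Rpl41, Rps3a1, Rps4l and Rpl32l. Across the core genes, the log2 fold change had a Pearson correlation of 0.12 with log2 length and of -0.14 with GC content (n = 75 genes of the same libraries, a description).

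Among the genes whose pattern over the 4 libraries was most like the mean log2 level of the core members were Uvrag, Paqr7, Rpe and Ptn, with Pearson correlations of 0.99992 to 0.99997 on log2(FPKM + 1), a likeness that many of 13027 genes can reach over so few libraries. Uvrag had 6.17 and 5.99 FPKM in WT against 7.34 and 9.51 FPKM in KO mice, and Ptn, which encodes the growth factor pleiotrophin, had 3.37 and 2.80 FPKM against 8.30 and 32.1 FPKM.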

How the data were processed

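RNA of BLM-treated skin was measured in 2 WT and 2 KO libraries. Per the submitters' processing notes, the authors aligned reads with HISAT2 version 2.0.1 to mm9 and used StringTie version 2.0.6, and the paper's methods name featureCounts and DESeq2. The deposited table is called counts but holds FPKM, so no count model was used. Values were fitted as log2(FPKM + 1) in limma (version 3.58.1, R version 4.3.3), modelling genotype alone with a mean-variance trend, over the 13027 genes that reached 1 FPKM in 2 or more libraries, with Benjamini-Hochberg adjustment over all of them. Fold changes understate the change of low genes. The fit and the depth estimate (genes with a single coding transcript of at least 2 kb) were tested on simulated data. Summaries used pandas 2.3.3 under Python 3.11.15. The members and gene lists were chosen with earlier results of these data known. Genes named are the 5 most abundant members, the 8 largest and 8 smallest fold changes, paralogs and partners, stalk genes, members with a known role and, from related lists, genes with the largest or smallest fold change. Some genes that these rules take are not reported here. Rpl37, Rps10, Rpl15, Rpl35, Rps21 and the copy rows, as well as Gar1, Nhp2, Npm1, Trp53, Acta1, Krt1, Krt10, Krt5, Krt14, Dsp and Trp63, were chosen after their values were seen. No source says that a replicate number marks a shared litter or batch.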

Additional observations from a re-analysis of the deposited data

How the results depend on the processing

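Depth limited Rpl39l, whose lowest value rested on an estimated 15.5 fragments, and the Rps27 row. Where 1 library was left out, the lone library of its group was assumed to vary like the other group. The count of called genes over the table was 0 in the fit reported and under all 9 alternatives that kept the 4 libraries, and ran from 0 to 1920 when 1 library was left out. Leaving out KO replicate 1 gave 1920 and leaving out KO replicate 2 gave 31. For the members the count was 0 to 2 when a library was left out, with Rpl17 and Rpl39 passing without KO replicate 1. The 6 members higher with an unadjusted p under 0.05 became 3 with no filter, 1 with upper-quartile scaling, 1 with median-ratio size factors and 3 with the length and GC trend removed, and ranged from 0 (without WT replicate 2) to 38 (without KO replicate 1), with 3 without WT replicate 1 and 1 without KO replicate 2. The count of 1 lower member ranged from 0 to 2 when a library was left out. Besides the fit reported, the share of all genes higher at this p is given above for median-ratio scaling and without WT replicate 2 or KO replicate 1. For the other settings it was not taken, so their counts of members cannot be set against all genes. The count of 66 members above in both KO libraries ran from 44 to 69 under other scalings and filters. The members' median of 0.49 ran from 0.28 to 0.68 without a library and from 0.37 to 0.52 otherwise. The summed share differed by 1.46 to 3.62 points. The cause of these shifts was not tested.

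Same-numbered libraries had a correlation of -0.20 in their deviations from the group means over 13027 genes, so the numbers were not taken as pairs. With the replicate number as a block, 2 members were higher and 0 lower with an unadjusted p under 0.05, and 0 genes were called. The replicate numbers were also crossed as a block, chosen after seeing the data like the length and GC correction. In that fit 14 members were higher and 0 lower with an unadjusted p under 0.05, and 0 genes were called. The share of all genes at this p was not taken in either block fit. The counts of 2 and 14 therefore cannot be read as above or below that of all genes.

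For single genes, the size depended on the library left out: Rpl22l1 ran from 0.41 to 1.80 and Rpl24 from 0.47 to 1.71, with the lowest value without WT replicate 2 and the highest without WT replicate 1. Rpl39l turned to -0.0853 and Rps27l to -0.0616 with the length and GC trend removed. When 1 library was left out, Rpl39l lay between -0.95 and 1.16, Rpl32l between -0.58 and 0.33, Rps27 between -0.22 and 0.11, Rps27l between -0.0905 and 0.71, and Rps4l between -1.02 and 0.0722.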
